A study of Rattus norvegicus with 24 samples.

Results

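The genes for the pro-alpha chains of the interstitial fibrillar collagens, Col1a1, Col1a2 and Col3a1, and the gene for fibronectin, Fn1, were followed through rat neurospheres (NSps). The 4 genes were taken by Ensembl identifier from the 16478 genes of the deposited TPM table, and all 4 were listed: ENSRNOG00000003897 (Col1a1), ENSRNOG00000011292 (Col1a2), ENSRNOG00000003357 (Col3a1) and ENSRNOG00000014288 (Fn1). Fn1 was expressed at 9.48 to 24.3 TPM in the 23 samples kept, and at 2.67 TPM in an outlying control that was left out. TPM is a transcript abundance scaled by transcript length and by the size of the library. Col1a1, Col1a2 and Col3a1 were below 1 TPM in all samples. Fn1 did not pass the test in any comparison of radiation, Noggin or ascorbic acid in the TPM as estimated.

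Fibrillar collagens are secreted as procollagen, in which 3 alpha chains wind into a triple helix. Type I collagen is built of the products of Col1a1 and Col1a2, and type III collagen of the product of Col3a1 alone. Prolyl and lysyl hydroxylases modify the chains before they fold, and ascorbate keeps the iron of these enzymes in its active state. This step acts on the protein, after transcription, so a transcript level does not measure it. Fibronectin is a secreted glycoprotein dimer that cells assemble into fibrils through integrins, and it carries binding sites for collagen. In the brain, fibrillar collagens are made mainly by cells of the meninges and vessel walls, and fibronectin by cells of the vasculature and, during development, by progenitors and glia.

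NSps are free-floating clusters grown from neural progenitor cells (NPCs), here from the brains of Sprague Dawley rat fetuses at embryonic day 15, in medium with epidermal and fibroblast growth factors and heparin. All 6 groups shared this culture. Untreated controls (C) stood beside NSps given 5 µM Noggin (N) or 200 µM ascorbic acid (A), and the irradiated counterparts CGy, NGy and AGy received 1 Gy of X-rays on day 3 after seeding. Noggin and ascorbic acid were given around the time of irradiation. The results of the study place the extraction of bulk RNA a week after irradiation, whereas its methods describe culture for up to a week before analysis. Noggin is a secreted protein that binds bone morphogenetic proteins and keeps them from their receptors. Each group had 4 samples. The control sample MO2, which the study removed as an outlier, was left out here, so that 23 samples remained, and its values are given where they matter. Nothing in the sources used here says whether the samples of a group came from separate litters or only from separate wells, so p-values measure the spread between these samples, which may be technical. In the titles of the samples, the numbers of all A and AGy samples lie below those of all CGy, N and NGy samples, and the 4 C samples lie on both sides, 1 below and 3 above. In irradiated NSps ascorbic acid and this numbering thus cannot be told apart, and its part in the comparison of A with C was not tested. The tables do not pair identifiers with gene names, so the markers of NPCs, astrocytes, pericytes, fibroblasts, endothelium and microglia, and the enzymes and receptors of the collagens, were not analysed here, and the cell type of the label was not checked against them.

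Among all genes, Fn1 was of middle to high level and the collagens were low. The mean of Fn1 over 23 samples was 15.6 TPM, above 69.6% of the genes listed. Within single samples Fn1 was above 62.7% to 76.5% of the genes. Mean TPM was 0.498 for Col3a1, 0.126 for Col1a1 and 0.0575 for Col1a2, above 36.5%, 27.0% and 22.6% of the genes, respectively. TPM are scaled by transcript length, so these levels can be set beside each other. In every sample Fn1 exceeded the sum of the 3 collagens, by 9.09 times at the least and 25.5 times at the median. The highest value of any collagen in any sample, 0.926 TPM of Col3a1, was 9.77% of the lowest Fn1 value. A level under 1 TPM in every sample was shared by 5665 genes, 34.4% of those listed. The tables keep no read counts, so the depth and the counting error behind these low values are unknown, and nothing here shows whether collagen transcripts below this level were absent.

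**Figure D1:**
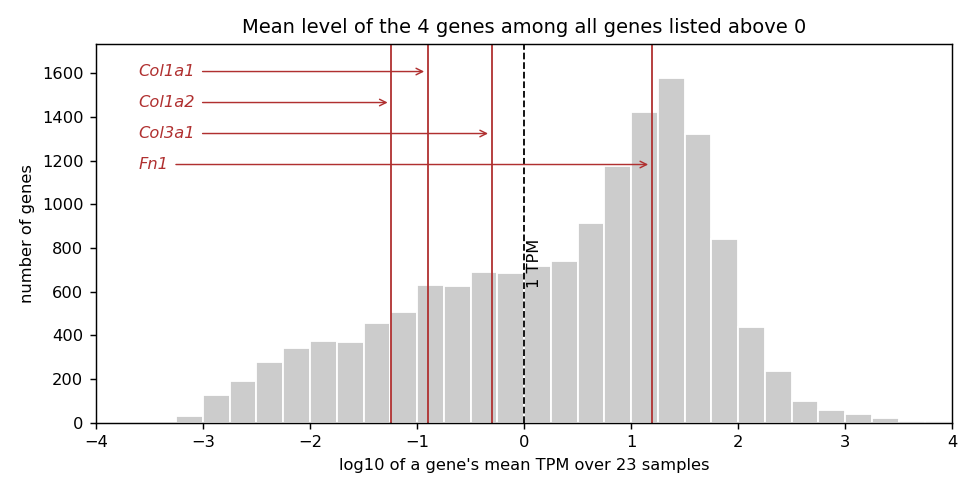
Number of genes (vertical axis) by the log10 of their mean TPM over 23 samples (horizontal axis), with lines at the means of the 4 genes and at 1 TPM. Of 15020 genes above 0, 71 lie left of the axis. Fn1 lies at 15.6 TPM and the 3 collagens lie left of 1 TPM.

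Fn1 was highest on average in irradiated NSps without a pretreatment and lowest in irradiated NSps with ascorbic acid. In C, Fn1 was 14.0 TPM in MO1, 18.3 in MO3 and 13.1 in MO4. In CGy it was 13.5 TPM in MO13, 17.0 in MO14B, 20.1 in MO15 and 24.3 in MO16. Of the CGy samples, 2 lay within the range of C and 2 above it. In N, Fn1 was 15.7 TPM in MO5, 16.1 in MO6, 16.4 in MO7 and 18.4 in MO8, the narrowest range of the 6 groups. In NGy it was 9.48 TPM in MO17, 14.1 in MO18, 17.2 in MO19 and 15.9 in MO20. MO17 had the lowest Fn1 of the 23 samples, and the other NGy samples lay within or below the range of N. In A, Fn1 was 13.4 TPM in MO9, 12.2 in MO10, 21.9 in MO11 and 13.5 in MO12, so that MO11 stood apart from the other 3. In AGy it was 11.5 TPM in MO21, 17.6 in MO22, 13.4 in MO23 and 11.96 in MO24, with MO22 above the other 3.

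Ordered by their means, the groups were CGy with 18.7 ± 4.60 TPM (SD, n = 4), N with 16.6 ± 1.195 (SD, n = 4), A with 15.3 ± 4.47 (SD, n = 4), C with 15.1 ± 2.81 (SD, n = 3), NGy with 14.2 ± 3.37 (SD, n = 4) and AGy with 13.6 ± 2.78 TPM (SD, n = 4). No neighbours in this order differed beyond the spread between samples, with adjusted p-values of 0.552 to 0.994 (limma with Benjamini-Hochberg adjustment over all genes tested). The 2 ends of the order, AGy and CGy, overlapped as well, since AGy sample MO22 lay above CGy samples MO13 and MO14B. The samples overlapped in all 7 pairs of groups compared below, in which the groups of 15% (CGy against C), 23.3% (NGy against N), 8.1% (AGy against A), 13% (N against C), 12.5% (A against C), 12.1% (NGy against CGy) and 23.6% (AGy against CGy) of the genes tested did not overlap. The order depended on the summary: by medians, A fell to the fifth place with 13.5 TPM and NGy rose to the third with 14.99 TPM, while CGy (18.5 TPM) and AGy (12.7 TPM) kept the ends.

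**Figure D2:**
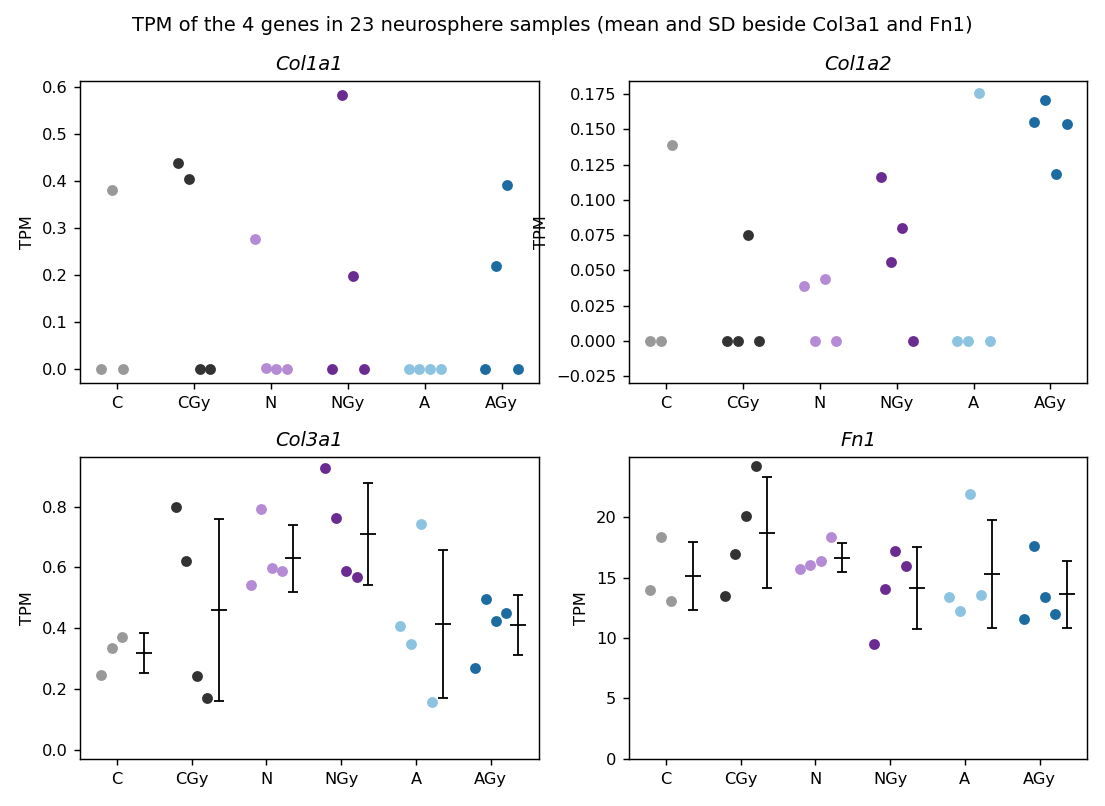
TPM (vertical axes, a scale of its own for each gene) of Col1a1, Col1a2, Col3a1 and Fn1 in each of 23 samples by group, without the control MO2. Points are samples, and for Col3a1 and Fn1 the bar beside them is the mean with its SD. Fn1 lies between 9.48 and 24.3 TPM with overlapping groups, the 8 Noggin samples lie at or above 0.542 TPM for Col3a1, and the 4 AGy samples lie at or above 0.119 TPM for Col1a2.

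Whether radiation altered Fn1 was asked with no pretreatment, under Noggin and under ascorbic acid. Calls required an adjusted p-value no greater than 0.05 together with a difference of 1.5-fold or more in log2(TPM + 1). Adding 1 makes fold changes of weakly expressed genes look smaller than they are. Between CGy and C, Fn1 differed by 0.27 on this scale (95% interval -0.21 to 0.76, adjusted p = 0.506 from limma), a comparison in which 0.0204% of 9782 genes were called. Between NGy and N the difference was -0.25 (-0.62 to 0.13, adjusted p = 0.324 from limma, with 2.91% of genes called), and -0.08 without MO17. Between AGy and A it was -0.14 (-0.58 to 0.31, adjusted p = 0.799 from limma, with 0% of genes called). As ratios, the intervals ran from 0.863 to 1.69 for CGy against C, from 0.650 to 1.09 for NGy against N and from 0.669 to 1.24 for AGy against A, so the spread between samples could not resolve changes of 1.5-fold in the first and second of these. Averaged over the 3 arms, the irradiated samples differed from the others by -0.04 (-0.28 to 0.21, adjusted p = 0.850 from limma, with 2.17% of genes called). This interval lay within 1.5-fold on both sides. Across the 11 samples without radiation Fn1 ran from 12.2 to 21.9 TPM (median 15.7), and across the 12 irradiated samples from 9.48 to 24.3 TPM (median 14.99).

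The pretreatments were then compared with no pretreatment at the same dose of radiation. Between N and C, Fn1 differed by 0.14 on the log2(TPM + 1) scale (95% interval -0.16 to 0.44, adjusted p = 0.616 from limma, with 0.0102% of genes called). Between A and C the difference was -0.008 (-0.51 to 0.49, adjusted p = 0.994 from limma, with 0.0203% of genes called). As a ratio, this interval ran from 0.705 to 1.40. In irradiated NSps, the mean of Fn1 was lower with either pretreatment than without, by less than the tests could separate from the spread between samples. Between NGy and CGy the difference was -0.38 (-0.88 to 0.12, adjusted p = 0.408 from limma, with 0.392% of genes called). Between AGy and CGy it was -0.42, a ratio of 0.749 (-0.85 to 0.02, adjusted p = 0.168 from limma), in a comparison where 6.42% of 9847 genes were called. Averaged over both doses, ascorbic acid differed from no pretreatment by -0.21 (-0.54 to 0.11, adjusted p = 0.365 from limma, with 3.84% of genes called) and Noggin by -0.12 (-0.41 to 0.18, adjusted p = 0.732 from limma, with 0.552% of genes called).

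Whether a pretreatment altered the response of Fn1 to radiation was tested as the difference between the radiation effects. A call in this test required only an adjusted p-value no greater than 0.05, without a fold threshold. The radiation difference was 0.27 without a pretreatment and -0.25 under Noggin, and the difference between them was -0.52 on the log2(TPM + 1) scale (95% interval -1.11 to 0.07, adjusted p = 0.345 from limma, with 0.01% of 9958 genes called). For ascorbic acid the difference between the effects was -0.41 (-1.06 to 0.24, adjusted p = 0.665 from limma, with 0.00996% of genes called). Over these 12 comparisons Fn1 was called in 0 and had an unadjusted p-value under 0.05 in 0 (limma). CGy and C samples enter both differences, so the 2 values are not independent.

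The batch-corrected table of the study gave group means for Fn1 close to these (for example 18.4 in place of 18.7 TPM in CGy) with a smaller spread. The correction took away 47.4% of the sum of squares of Fn1 within groups, which lowered the SD within groups from 0.293 to 0.212 on the log2 scale. It moved the CGy sample MO16 from 24.3 to 20.6 TPM and the C sample MO4 from 13.1 to 16.7 TPM. In these values AGy and CGy differed with an adjusted p of 0.0384 (limma), as did 37.9% of genes, and the change of -0.42 stayed under 1.5-fold. The difference between the radiation effects with and without Noggin, -0.52, had an adjusted p of 0.0314 (limma), as did 24.1% of genes at or below 0.05 in this test. P-values from the corrected table do not account for the spread that the correction removed, and before the correction neither difference passed.

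**Figure D3:**
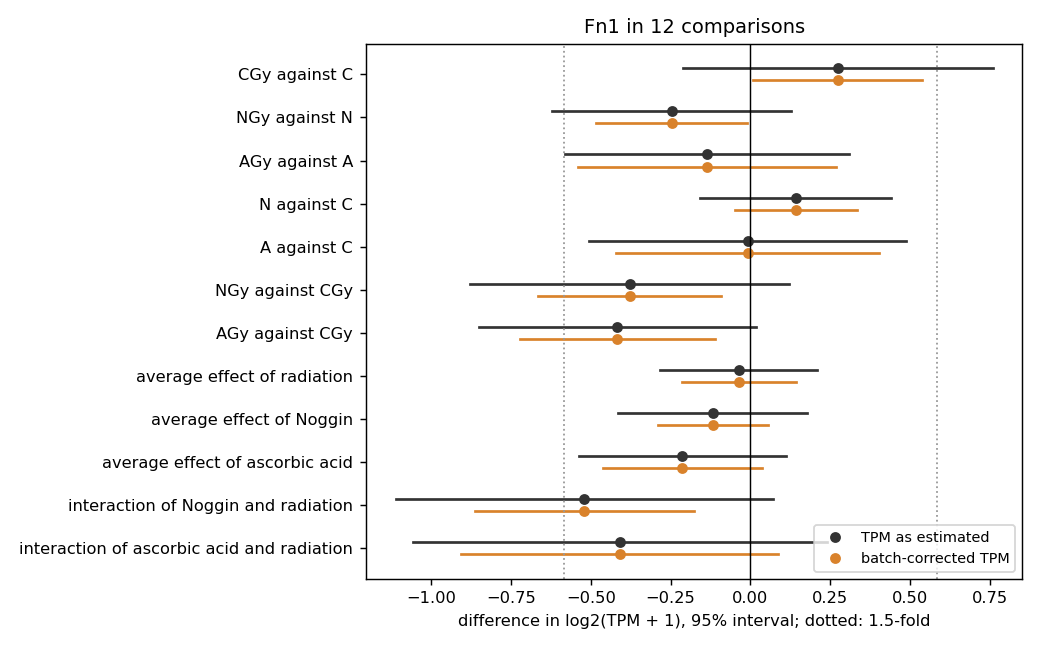
Difference of Fn1 in log2(TPM + 1) (horizontal axis) in 12 comparisons (vertical axis), as points with 95% intervals from limma, for TPM as estimated (dark) and batch-corrected TPM (orange). Dotted lines mark a 1.5-fold change. All 12 intervals of the TPM as estimated include 0, and those of the corrected values are narrower around the same points.

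**Figure D4:**
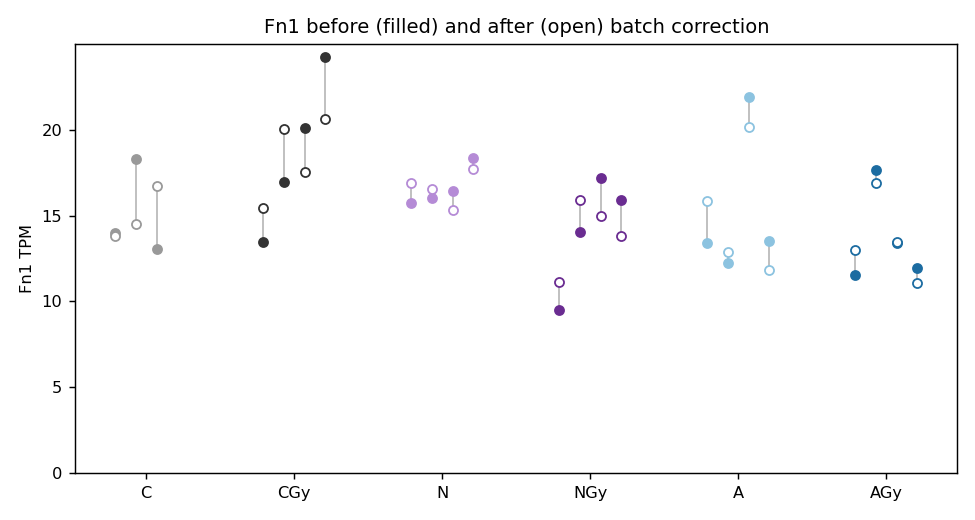
Fn1 TPM (vertical axis) of each of 23 samples by group, before (filled points) and after (open points) the batch correction of the study, joined by lines. The correction drew the C, CGy and NGy samples together, as for MO16 from 24.3 to 20.6 TPM.

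Group membership held 25.1% of the sum of squares of Fn1 across the 23 samples, against 46.6% for the median of the 10134 genes that reached 1 TPM on average in some group, and 15.2% of these genes had a smaller share. The SD of Fn1 within groups, 0.293 on the log2 scale, was larger than that of 77.0% of these genes, whose median was 0.179. On this scale Fn1 thus varied more among samples of 1 group than most genes did, and less of its variation followed the groups. The scale is log2(TPM + 1), where the added 1 narrows the SD of genes near 1 TPM more than that of Fn1. No comparison with genes of a like level was made. Much of a between-group share such as that of Fn1 can arise without any group effect, since 6 means are fitted to 23 samples. The genes whose log2(TPM + 1) followed Fn1 most closely over the 23 samples were ENSRNOG00000038436, with a Pearson r of 0.82 and 6.80 to 10.4 TPM, and ENSRNOG00000004459, with a Pearson r of 0.81 and 1.05 to 2.31 TPM. These are the 2 highest among 10134 genes and are given as a description, without a test. In bulk RNA, fewer cells that make a transcript and less of it per cell cannot be told apart.

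Col3a1 was the most abundant of the collagen transcripts, the highest of the 3 in 22 of 23 samples, and was listed above 0 in all. It was 0.246 TPM in MO1, 0.335 in MO3 and 0.373 in MO4 of group C. In N it was 0.542 TPM in MO5, 0.791 in MO6, 0.597 in MO7 and 0.589 in MO8, all above the 3 C samples. In NGy it was 0.926 TPM in MO17, 0.763 in MO18, 0.588 in MO19 and 0.568 in MO20. All 8 Noggin samples were at or above 0.5 TPM, as were 2 of the 7 samples without a pretreatment and 1 of the 8 with ascorbic acid. This level was not among the planned thresholds. It falls between the AGy sample MO22 (0.496 TPM) and the lowest Noggin value (0.542 TPM). In CGy the samples fell far apart, with 0.797 TPM in MO13, 0.622 in MO14B, 0.244 in MO15 and 0.172 in MO16, and the NGy samples overlapped the upper ones. In A it was 0.408 TPM in MO9, 0.347 in MO10, 0.742 in MO11 and 0.158 in MO12, and in AGy 0.270 in MO21, 0.496 in MO22, 0.422 in MO23 and 0.452 in MO24. The batch correction of the study drew the CGy samples closer together. They became 0.634 TPM in MO13, 0.383 in MO14B, 0.430 in MO15 and 0.316 in MO16.

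The collagens did not reach the minimum of 1 TPM in either group of any comparison, so they entered only the fits without this minimum. The difference of Col3a1 between Noggin and no pretreatment, averaged over both doses, was 0.28 on the log2(TPM + 1) scale (95% interval 0.08 to 0.47). Its unadjusted p was 0.00973 and its adjusted p 0.181 over 14737 genes (limma), so it did not pass, in a fit where 1.12% of genes had an adjusted p of at most 0.05. Between N and C the difference was 0.31 (adjusted p = 0.334 from limma), and 10.5% of all genes also had groups that did not overlap there. Between NGy and CGy it was 0.25 (adjusted p = 0.521 from limma). The mean was 0.671 ± 0.139 TPM in the 8 Noggin samples (SD, n = 8) and 0.399 ± 0.228 TPM in the 7 samples without a pretreatment (SD, n = 7). In the batch-corrected values the adjusted p of the averaged difference was 0.00636 (limma), as 13.1% of genes had one of at most 0.05 there. Averaged over both doses, Col3a1 differed between ascorbic acid and no pretreatment by 0.03 (-0.20 to 0.26, adjusted p = 0.907 from limma).

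The order of the groups for Col3a1 was NGy with 0.711 ± 0.168 TPM, N with 0.630 ± 0.110, CGy with 0.459 ± 0.2998, A with 0.414 ± 0.243, AGy with 0.410 ± 0.0983 (SD, n = 4 each) and C with 0.318 ± 0.0649 TPM (SD, n = 3). Neighbours in this order had adjusted p-values of 0.554 to 0.989 (limma, no minimum). It was not the order of Fn1, in which CGy came first and NGy came next to last. The NGy sample MO17 had the highest Col3a1 and the lowest Fn1 of the 23 samples, and the CGy sample MO16 had the highest Fn1 with a Col3a1 of 0.172 TPM. The A sample MO11 was instead the highest of its group in Fn1, Col3a1 and Col1a2, and Col1a1 was listed at 0 in it. These are TPM as estimated. In the batch-corrected values MO17 had 11.14 TPM of Fn1, above the 11.05 of the AGy sample MO24. Col3a1 in MO16 was then 0.316 TPM.

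Col1a2, the gene for the alpha 2 chain of type I collagen, was listed at 0 in 11 of 23 samples and did not exceed 0.175 TPM in any. In AGy, in contrast, all 4 samples were listed above 0, with 0.155 TPM in MO21, 0.170 in MO22, 0.119 in MO23 and 0.154 in MO24. In CGy it was 0.0749 TPM in MO15 and was listed at 0 in MO13, MO14B and MO16, so that the AGy samples lay above all CGy samples, as the groups of 17.6% of all genes did not overlap in this comparison. In A it was 0.175 TPM in MO11, the highest of the 23 samples, and was listed at 0 in the other 3. In C it was 0.139 TPM in MO4 and at 0 in MO1 and MO3. In N it was 0.0386 TPM in MO5 and 0.0436 in MO7, and at 0 in MO6 and MO8. In NGy it was 0.116 TPM in MO17, 0.0557 in MO18 and 0.0801 in MO19, and at 0 in MO20. The AGy samples did not overlap those of N or NGy either (23.3% and 20.5% of all genes), but each of A and C had 1 sample within or above their range.

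Between AGy and CGy, the difference of Col1a2 was 0.18 on the log2(TPM + 1) scale (95% interval 0.08 to 0.27), with an adjusted p of 0.0454 over 14476 genes (limma), as for 7.18% of these genes, and a change under 1.5-fold on this scale. Without any 1 of the 8 samples the difference stayed between 0.166 and 0.201. The adjusted p then rose to between 0.0667 and 0.123 (limma), so a value under the threshold needed all 8 samples. With a pseudocount of 0.1 in place of 1, the difference was 1.11 (adjusted p = 0.0373 from limma) and passed both thresholds, whereas with quantile normalization it was 0.15 (adjusted p = 0.0762 from limma) and passed neither. Over all alternatives with the 8 samples kept, the adjusted p ran from 0.00694, in the batch-corrected values, to 0.0762. No fold is given, since 3 of the 4 CGy samples were at 0. Between AGy and A the difference was 0.14 (-0.004 to 0.29, adjusted p = 0.445 from limma). Averaged over both doses, Col1a2 differed between ascorbic acid and no pretreatment by 0.09 (-0.01 to 0.18, adjusted p = 0.264 from limma), and the difference between the radiation effects with and without it was 0.18 (-0.01 to 0.37, adjusted p = 0.676 from limma).

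Col1a1, the gene for the alpha 1 chain of type I collagen, was listed in an all-or-none manner in the TPM as estimated. It was at 0 in 11 samples, between 0.000455 and 0.0017 TPM in 4, and between 0.198 and 0.584 TPM in the other 8, with no sample in between. The 8 samples were MO3 of C (0.381 TPM), MO5 of N (0.276 TPM), MO13 and MO14B of CGy (0.438 and 0.406 TPM), MO18 and MO19 of NGy (0.584 and 0.198 TPM) and MO22 and MO23 of AGy (0.219 and 0.392 TPM). They made up 2 of the 11 samples without radiation and 6 of the 12 irradiated ones. In A, all 4 samples were at 0. Averaged over the 3 arms, the difference between irradiated and other samples was 0.14 on the log2(TPM + 1) scale (-0.06 to 0.35, adjusted p = 0.357 from limma), and that between ascorbic acid and no pretreatment was -0.11 (-0.36 to 0.14, adjusted p = 0.631 from limma). The batch-corrected values filled the gap, for example with 0.117 TPM in MO4, 0.154 in MO15, 0.108 in MO16 and 0.121 in MO21.

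The chains of type I collagen were counted together at the same level. At least 0.1 TPM was reached by Col1a1 in 8 samples and by Col1a2 in 7, by both in only MO22 and MO23 of AGy, and by neither in 10 samples. With so few samples at this level, no relation between the chains was tested. Over the same 12 comparisons, without the minimum of 1 TPM, none of the 3 collagens was called (limma), and an unadjusted p under 0.05 was reached by Col1a1 in 0, by Col1a2 in 1 and by Col3a1 in 2 of them. Calls were few among all genes too: 0.007% for CGy against C, 1.52% for NGy against N, 0% for AGy against A, 0.00707% for N against C, 0.014% for A against C, 0.229% for NGy against CGy and 3.21% for AGy against CGy. For the averages they were 2.18% (ascorbic acid), 0.312% (Noggin) and 1.25% (radiation), and for the differences between radiation effects 0% (ascorbic acid) and 0.00679% (Noggin).

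The control sample MO2 had 2.67 TPM of Fn1, 0.177 times the mean of the other 3 controls, and lay below the range of all other samples. Its collagens lay within the range of the others, with 0.383 TPM of Col3a1, 0.166 of Col1a2 and Col1a1 at 0. With MO2 the Fn1 mean of C became 12.01 ± 6.63 TPM (SD, n = 4), the lowest of the 6 groups in place of the fourth.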

How the data were processed

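Directional libraries of polyA RNA from NSps were sequenced and aligned by the authors with STAR 2.6.1 to rat build Rn7, and the deposited TPM per Ensembl gene were estimated with kallisto. The genes listed sum to 615330 to 655289 TPM per sample. A further deposited table, which the authors corrected for batches with NOISeq after removal of MO2, holds a score equal to 0.5 times the corrected TPM + 1. It was doubled and reduced by 1 to return to TPM, and values below 0 were set to 0 for tests. The columns carry identifiers of the study, whose groups its figures and methods give. They could not be matched to single sample labels.

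The uncorrected table without MO2 was the main source, since the correction narrowed the spread within groups and left the Fn1 group means nearly in place. The factor given to NOISeq is not given in the sources used here. Earlier work on these data reported that the correction used the group labels, which would shrink the spread within groups. This was not tested here. For AGy against CGy, the Fn1 difference in log2(TPM + 1) was -0.417 before and after the correction. Its standard error fell from 0.19 to 0.133. Genes averaging 1 TPM or more in a group compared were fitted on log2(TPM + 1) with limma 3.58.1 in R 4.3.3, with only the groups compared in the fit, and p-values were adjusted (Benjamini-Hochberg) over all of them. Fits without this minimum left out genes at 0 in every sample. TPM keep no counts, so depth is unknown, and the error is the spread between samples only. The scripts were tested on simulated data. Figures were drawn with matplotlib 3.10.9.

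The 4 genes, the gene lists and the tests were chosen with earlier results of these data known. Named genes were the 4 members, up to 4 genes of each list of matrix genes where a symbol was paired with an identifier (those with the smallest p for ascorbic acid), and the genes with the highest Pearson r to a member, at most 2 of them by identifier. The reference list (GRCr8) has no Ensembl identifiers, so 0 of 16478 identifiers were matched to a symbol and no list could be analysed here. Symbols of the 4 members come from the list of members. Comparisons of collagens named in the text were chosen after their values were seen. Alternatives were the corrected table, MO2 included, a pseudocount of 0.1, no minimum, quantile normalization, TPM rescaled to an equal sum, a variance trend, all 6 groups in 1 fit, an adjusted p alone and each sample left out.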

Additional observations from a re-analysis of the deposited data

Results flagged for a closer look

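A sample that lay far from the other 3 of its group, by Dixon's 95% criterion, was found in 4 of the 19 sets of 4 samples with unequal values. Chance gives about 1 in 20 for normally distributed values, a rate that does not apply to the 3 collagen sets, where the other samples are at or near 0 and any single value stands apart. In A, MO11 had 21.9 TPM of Fn1 against 12.2 to 13.5 TPM in the others. The same sample had 0.175 TPM of Col1a2, with the others at 0. In CGy, MO15 had 0.0749 TPM of Col1a2, with the others at 0. In N, MO5 had 0.276 TPM of Col1a1, with the others at or below 0.0017 TPM. No difference between the radiation effects with and without a pretreatment passed the test for any of the 4 genes in the TPM as estimated.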

How the results depend on the processing

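Fn1 stayed uncalled in all 12 comparisons under every alternative, with 1 exception: the difference between the radiation effects with and without Noggin, -0.52 on the log2 scale, passed in the batch-corrected values. That test had no fold threshold, and the change was under 1.5-fold. With MO2 included, the sign of Fn1 turned in A against C (0.52), in the averages for ascorbic acid (0.052) and Noggin (0.15), and in that for radiation (0.14), with adjusted p from 0.676 to 0.933 (limma). MO2 also moved CGy against C to 0.80, N against C to 0.67 and the differences between radiation effects to -1.05 (Noggin) and -0.94 (ascorbic acid), all uncalled. Rescaling TPM to an equal sum turned A against C to 0.005. Quantile normalization turned Col3a1 for averaged ascorbic acid to -0.018. With each sample left out in turn, Fn1 ranged from -0.185 to 0.129 in A against C, from -0.26 to 0.04 in AGy against A and from -0.080 to 0.022 for averaged radiation, and Col3a1 from -0.024 to 0.083 for averaged ascorbic acid. The other Fn1 differences kept their sign and stayed uncalled, but several moved by over 1.5 times: NGy against N from -0.34 to -0.08 (without MO17), CGy against C from 0.14 (without MO16) to 0.41 (without MO13 or MO3), N against C from 0.05 (without MO4) to 0.28 (without MO3), averaged Noggin from -0.19 (without MO13) to -0.04 (without MO17), averaged ascorbic acid from -0.30 to -0.14, NGy against CGy from -0.52 to -0.21, AGy against CGy from -0.56 to -0.29, and the differences between radiation effects from -0.66 to -0.35 (Noggin) and from -0.55 to -0.23 (ascorbic acid). Col3a1 for averaged Noggin stayed between 0.23 and 0.33 (adjusted p from 0.0915 to 0.298, limma). The causes were not tested. Within each group, most of the numbers in the sample titles rise by equal steps, and the step is the same in all groups. Such numbers may mark sets of samples handled together, which was not tested. No paired analysis was possible, because the identifiers of the columns could not be matched to the titles and carry no number shared between groups. If there were such sets, the tests did not take them into account. Unknown depth limits the collagens most, which lie below 1 TPM.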
